A study of Mus musculus with 15 samples.

Results

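Aminoacyl-tRNA synthetases were followed in cultured mouse muscle satellite cells, the stem cells that repair skeletal muscle. The 35 genes described here were picked by their names: 20 code for the cytosolic enzymes and 15, with symbols that end in 2, for mitochondrial enzymes. Lars2 was left out because reads assigned to it behave like reads from ribosomal RNA. All 35 members were present in both count tables, which list 46078 genes in batch 1 and 13063 named genes in batch 2, and all 35 passed the filter on low counts in both.

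The cells came from hindlimb muscle, grew in F10 medium with horse serum and were exposed to a compound or to its solvent for 24 hours. Batch 2, from C57BL/6J mice, held 3 libraries with 0.25 mM AMP, 3 libraries with 0.1 mM adenosine and 3 libraries with DMSO. Batch 1, whose strain the labels do not name, held 3 libraries with 0.05 mM adenosine and 3 libraries with DMSO. AMP is adenosine carrying a phosphate group. Nothing in the labels ties a library to its own culture or animal. The p-values thus describe how far these libraries spread, and that spread may be technical. Because each library was made from many cells, fewer cells of a type and less RNA per cell cannot be told apart.

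Each synthetase joins one amino acid to its matching tRNAs and so supplies the ribosome with charged tRNA. Mitochondria translate their own messages and use a separate set of synthetases, which are coded in the nucleus and imported, while the products of Gars and Kars serve both compartments. In the cytosol several of the enzymes are held together with scaffold proteins in the multisynthetase complex. When amino acids run short, uncharged tRNA activates the kinase GCN2, and the transcription factor ATF4, translated in response, raises many of the cytosolic synthetase genes together with genes of amino acid synthesis and transport.

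The promoter stretches that carry a sequence related to this control are shown first. The cytosolic members they belong to fell with 0.1 mM adenosine and with AMP, as did most cytosolic members with a window but no match. RefSeq promoter windows of build GRCm38.p6, with 250 bases before and 50 after the annotated start, were found for 25 of the 35 members, 12 cytosolic and 13 mitochondrial. The letters TGATGNAAN, the core of the element bound by ATF4 with C/EBP proteins, were searched on both strands. They were found for 5 of the 12 cytosolic members, for 0 of the 13 mitochondrial members and in 3.954% of all 32851 windows. A member counts once if any of its windows has a match, while the percentages are over single windows. CACGTG, the E-box bound by MYC and related factors, was found for 4 cytosolic members (Aars, Farsb, Iars and Tars). It was found for 1 mitochondrial member (Ears2) and in 7.15% of all windows. TGACGTCA, the cyclic AMP response element, was found in 0 member windows and in 1.79% of all windows. A match is a description of letters and not a binding site. In the first 6 lines capitals mark the TGATGNAAN match, read on either strand, and in the last line they mark CACGTG in Ears2, the member with the largest rise. Each line reads along the strand of the gene.
Aars (chr8:111033709-111033757, + strand): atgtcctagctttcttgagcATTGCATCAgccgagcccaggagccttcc
Aars (chr8:111033830-111033878, + strand): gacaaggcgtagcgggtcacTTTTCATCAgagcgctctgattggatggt
Gars (chr6:55037950-55037998, + strand): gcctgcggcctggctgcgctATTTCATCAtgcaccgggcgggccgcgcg
Iars (chr13:49682116-49682164, + strand): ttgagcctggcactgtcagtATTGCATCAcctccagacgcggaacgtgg
Tars (chr15:11399646-11399694, - strand): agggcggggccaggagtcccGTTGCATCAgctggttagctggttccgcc
Yars (chr4:129189886-129189934, + strand): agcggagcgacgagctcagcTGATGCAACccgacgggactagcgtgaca
Ears2 (chr7:122067040-122067085, - strand): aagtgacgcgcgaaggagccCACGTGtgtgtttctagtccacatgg

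Total counts per library ran between 11107450 and 14201933 for batch 2 and between 14683346 and 20799588 for batch 1, and the 35 members together took 0.438% to 0.644% of a library's counts. All 8 markers of satellite cells and myoblasts were detected in every library, with Myod1 at 840.3 ± 119 CPM with AMP, 662 ± 31 CPM with 0.1 mM adenosine and 1749 ± 223 CPM with DMSO in batch 2, and at 1093 ± 218 CPM with 0.05 mM adenosine and 2928 ± 184 CPM with DMSO in batch 1 (SD, n = 3 per group). Of the 8, 6 fell with AMP, 7 with 0.1 mM adenosine and 7 with 0.05 mM adenosine, beside 31.8%, 34.5% and 19.5% of all genes. Pax7, the satellite cell transcription factor gene, rose with AMP (log2 fold change 0.62) and 0.1 mM adenosine (0.35) and did not pass the test with 0.05 mM adenosine. CPM is the count scaled to a common library size with TMM factors. The marker sums that follow were scaled by library totals without TMM factors. The summed level of these 8 markers moved with treatment and was 2446 to 3080 CPM with AMP, 1930 to 2493 CPM with 0.1 mM adenosine, 4934 to 5457 CPM with DMSO in batch 2, 2331 to 3137 CPM with 0.05 mM adenosine and 6449 to 6960 CPM with DMSO in batch 1. The leukocyte markers in the tables (2 of 8 in batch 2, 6 of 8 in batch 1) summed to 12.3 to 16.3 CPM with AMP, 12.1 to 15.7 CPM with 0.1 mM adenosine, 1.65 to 3.31 CPM with DMSO in batch 2, 11.7 to 18.1 CPM with 0.05 mM adenosine and 1.20 to 2.96 CPM with DMSO in batch 1. Markers of adult fibres (3 of 8 in the batch 2 table, 8 of 8 in that of batch 1) summed to 67.6 to 134 CPM with AMP, 47.3 to 112 CPM with 0.1 mM adenosine and 101 to 150.4 CPM with DMSO in batch 2, with overlap, and to 27.0 to 56.5 CPM with 0.05 mM adenosine and 74.8 to 157.8 CPM with DMSO in batch 1, without overlap. Markers of fibro-adipogenic cells (3 of 7 and 7 of 7) lay between 60.3 and 156.0 CPM, with no separation of treated and DMSO libraries on this scale. Marker sums with TMM factors, which differ between treated and DMSO libraries, were not made. Endothelial markers (2 of 6 and 6 of 6) summed to 9.24 to 12.7 CPM with AMP, 9.15 to 10.3 CPM with 0.1 mM adenosine and 2.00 to 5.26 CPM with DMSO in batch 2, and to 18.6 to 24.3 CPM with 0.05 mM adenosine and 5.10 to 7.34 CPM with DMSO in batch 1, without overlap. Smooth muscle and pericyte markers (1 of 5 and 5 of 5) summed to 0.34 to 0.72 CPM with AMP, 0.23 to 0.51 CPM with 0.1 mM adenosine and 1.41 to 2.26 CPM with DMSO in batch 2, without overlap, and to 2.30 to 7.01 CPM with 0.05 mM adenosine and 5.49 to 6.25 CPM with DMSO in batch 1, with overlap. In batch 1 at most 1 of the 6 leukocyte markers was at 0 in an adenosine library, and 2 to 4 were at 0 in a DMSO library. Of the leukocyte markers only Cd68 passed the filter on low counts in batch 1, while Cd68 and Csf1r passed it in batch 2. Within groups, some libraries stood apart in a chi-square test of their counts. The value per degree of freedom was up to 15.4 for AMP replicate 3 against the other AMP libraries, which gave 7.96 between them, and up to 19.9 for 0.1 mM adenosine replicate 1 against the others of its group, which gave 5.77. In batch 1 it was up to 34.4 for 0.05 mM adenosine replicate 1 against the others, which gave 14.4, and up to 33.6 for DMSO replicate 3, whose other libraries gave 15.7. The DMSO libraries of batch 2 differed by 3.54 to 7.58. The part of the marker shifts in the synthetase results was not tested.

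Per gene length, the median cytosolic synthetase mRNA was more abundant than the median mitochondrial one in every library. The median deposited FPKM over the 20 cytosolic genes was 37.7 to 39.9 in the AMP libraries, 36.4 to 37.0 in the 0.1 mM adenosine libraries and 63.9 to 66.4 in the DMSO libraries of batch 2. In batch 1 it was 43.1 to 52.1 with 0.05 mM adenosine and 59.6 to 66.9 with DMSO. Over the 15 mitochondrial genes the median FPKM was 6.50 to 6.67 with AMP, 6.08 to 7.24 with 0.1 mM adenosine and 8.55 to 10.5 with DMSO in batch 2, against 8.85 to 9.20 with 0.05 mM adenosine and 10.3 to 11.9 with DMSO in batch 1. For both sets, all treated libraries lay below all DMSO libraries of their batch in FPKM. In TMM-scaled log2 CPM this held for the cytosolic median but not for the mitochondrial one, which was 4.58 to 4.77 with AMP, 4.73 to 4.94 with 0.1 mM adenosine and 4.83 to 4.91 with DMSO in batch 2, and 5.19 to 5.45 with 0.05 mM adenosine and 4.94 to 5.20 with DMSO in batch 1. In DMSO, Nars, the asparagine enzyme, was the highest member at 191 ± 2.17 FPKM in batch 2 and 227 ± 12.7 FPKM in batch 1. It was followed by Gars, the glycine enzyme, at 186 ± 4.57 FPKM in batch 2 and 187 ± 12.6 FPKM in batch 1. Wars2, the mitochondrial tryptophan enzyme, was the lowest at 1.24 ± 0.311 FPKM in batch 2 and 1.70 ± 0.0599 FPKM in batch 1 (SD, n = 3 per group). The batches were tabulated separately, so their FPKM values are set side by side and not compared.

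**Figure D1:**
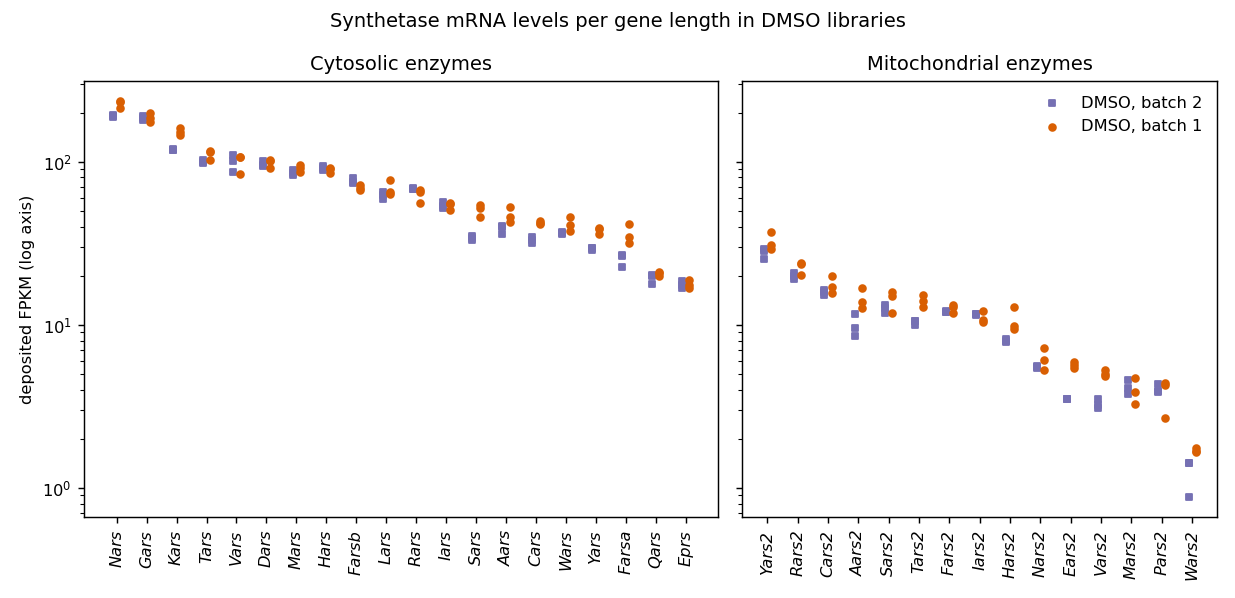
Deposited FPKM (log axis) of each member in the DMSO libraries of batch 2 (squares) and batch 1 (circles), cytosolic genes on the left and mitochondrial genes on the right, ordered by the batch 1 mean. The lowest cytosolic member is Eprs, at a mean of 17.6 FPKM in batch 2, and the only mitochondrial members above that in both batches are Yars2 and Rars2.

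Most cytosolic synthetases fell with AMP and with 0.1 mM adenosine and 8 of 20 fell with 0.05 mM adenosine, while mitochondrial ones fell or rose depending on the gene. A member rose or fell if its adjusted p was under 0.05 in edgeR's quasi-likelihood test over all genes of the batch. With AMP, 17 of 20 cytosolic members fell and 0 rose, where 31.8% of all tested genes fell and 33.7% rose. Among mitochondrial members 9 of 15 fell and 3 rose. With 0.1 mM adenosine, 19 cytosolic members fell and 0 rose, and 9 mitochondrial members fell and 4 rose, where 34.5% of all genes fell and 34.9% rose. With 0.05 mM adenosine in batch 1, 8 cytosolic members fell and 0 rose, and 6 mitochondrial members fell and 3 rose, where 19.5% of all genes fell and 19.6% rose. No cytosolic member had a positive change with an unadjusted p under 0.05 in these comparisons, a count of 0 that DESeq2 gave as well. The 8 cytosolic members that fell with 0.05 mM adenosine became 5 without DMSO replicate 2 of batch 1. Without AMP replicate 3 or without 0.1 mM adenosine replicate 1, the number of cytosolic members that fell in that library's comparison with DMSO stayed at 17 and 19, while mitochondrial members then numbered 10 that fell and 3 that rose with AMP and 8 that fell and 3 that rose with adenosine. Without 0.05 mM adenosine replicate 1 the counts of batch 1 were unchanged, and without its DMSO replicate 3 they were 7 cytosolic members that fell and 4 mitochondrial members that fell and 3 that rose. The first 2 comparisons share the DMSO libraries of batch 2. The 8 cytosolic members that fell in all 3 comparisons were Cars, Dars, Gars, Iars, Lars, Qars, Vars and Yars. The 6 mitochondrial members that fell in all 3 were Aars2, Cars2, Fars2, Iars2, Sars2 and Wars2, and Ears2 and Tars2 rose in all 3. The shares of all genes that fell or rose in all 3 comparisons were not computed.

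Several single calls rest on few libraries. In batch 1 Fars2 kept its call in 5 of 13 alternative settings, Qars in 8, Iars in 9 and Aars2 in 10. Fars2 lost it without adenosine replicate 2 or 3 or without any DMSO replicate, and Qars without replicate 2 or 3 of either group. Iars lost it without adenosine replicate 2 or DMSO replicate 1 or 2, Aars2 without adenosine or DMSO replicate 3, and Gars without DMSO replicate 2. In batch 2, Wars2 with AMP lost its call without AMP replicate 1 or DMSO replicate 1 or 3, and Mars2 without AMP replicate 1 or DMSO replicate 2. With 0.1 mM adenosine, Nars2 lost its call without adenosine replicate 1 or 3 or any DMSO replicate, and Rars2 kept its call in 8 of 17 settings. Farsa lost it without adenosine replicate 2 or DMSO replicate 1 or 3, Rars without adenosine replicate 2 or DMSO replicate 3, and Mars2 without DMSO replicate 2. The other calls against DMSO held when any one library was left out.

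The median log2 fold change of the cytosolic members was -0.43 with AMP, -0.51 with 0.1 mM adenosine and -0.31 with 0.05 mM adenosine, beside medians over all genes of 0.01, 0.01 and 0.03. The mitochondrial medians were -0.32, -0.33 and -0.16 in the same order, and the last of these was -0.25 without adenosine replicate 2 or DMSO replicate 3 and -0.11 without adenosine replicate 1. These directions depended in part on the scaling. With library totals in place of TMM factors the median of all genes moved to 0.28 with AMP, 0.32 with 0.1 mM adenosine and 0.22 with 0.05 mM adenosine, and the mitochondrial median with 0.05 mM adenosine turned to 0.04. Under that scaling 9 cytosolic members fell and 1 (Farsa) rose with AMP, 11 fell and 1 (Kars) rose with 0.1 mM adenosine, and 3 fell with 0.05 mM adenosine, where Dars, Gars, Iars, Qars and Yars lost their call, as did Aars2 and Fars2. Mitochondrial members that fell with AMP then numbered 4, and Nars2 rose (0.42). With 0.1 mM adenosine Mars2, Rars2 and Yars2 lost their call, and Hars2 (0.33) and Pars2 (0.45) rose. Relative to the median of all genes, the cytosolic medians were -0.44, -0.53 and -0.34 under both scalings, and the mitochondrial medians were -0.33, -0.34 and -0.19 under both. A change of scaling shifts all genes by about the same amount, so these relative values had to match and are no check on the scaling. No test was made of the cytosolic set against the mitochondrial set.

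**Figure D2:**
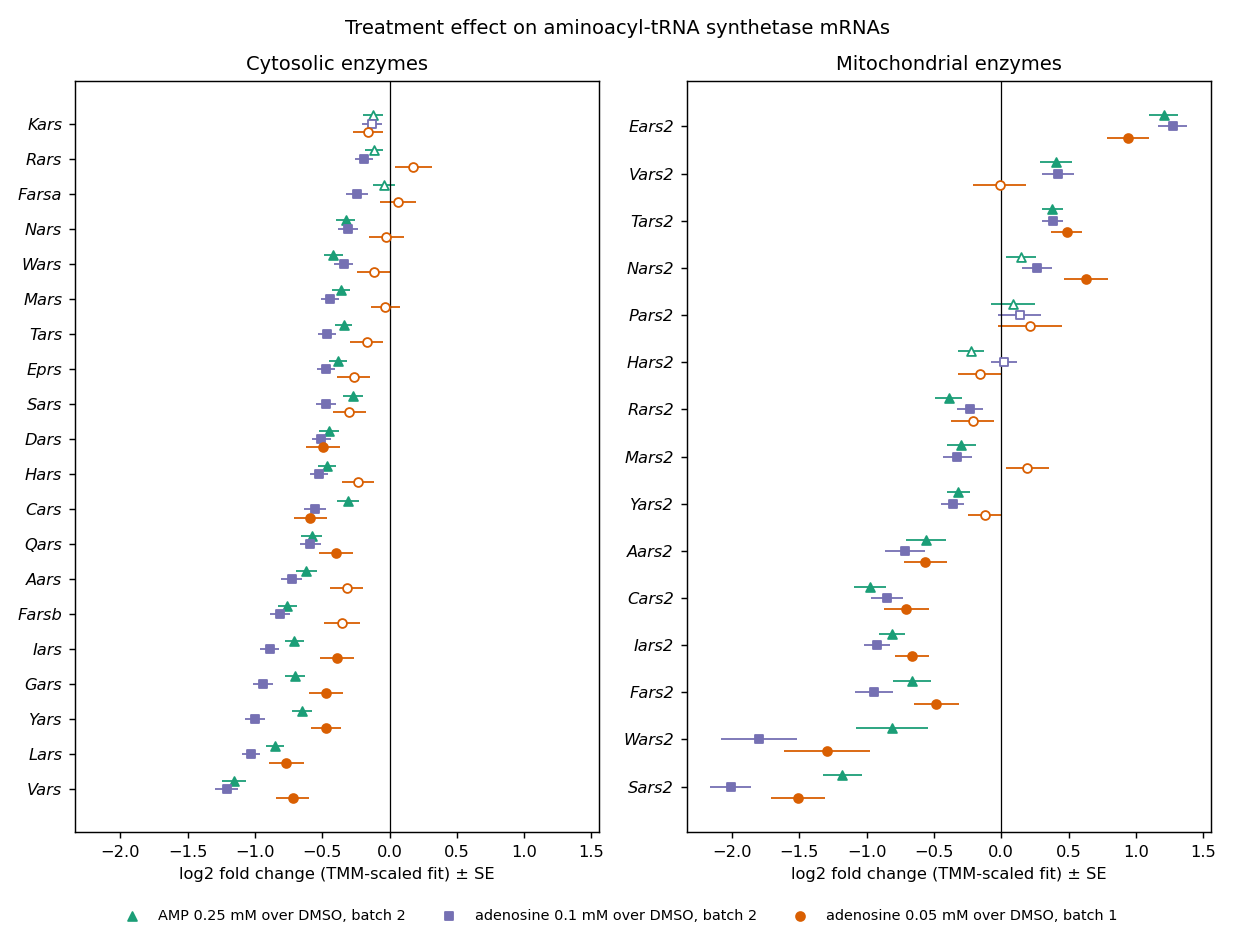
Log2 fold change over DMSO (x axis, bars ± SE) for each member with 0.25 mM AMP (triangles), 0.1 mM adenosine (squares) and 0.05 mM adenosine (circles), cytosolic genes on the left and mitochondrial genes on the right; filled symbols mark an adjusted p under 0.05. Cytosolic values run from -1.21 to 0.18 and mitochondrial values from -2.01 to 1.27, under TMM scaling.

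**Figure D3:**
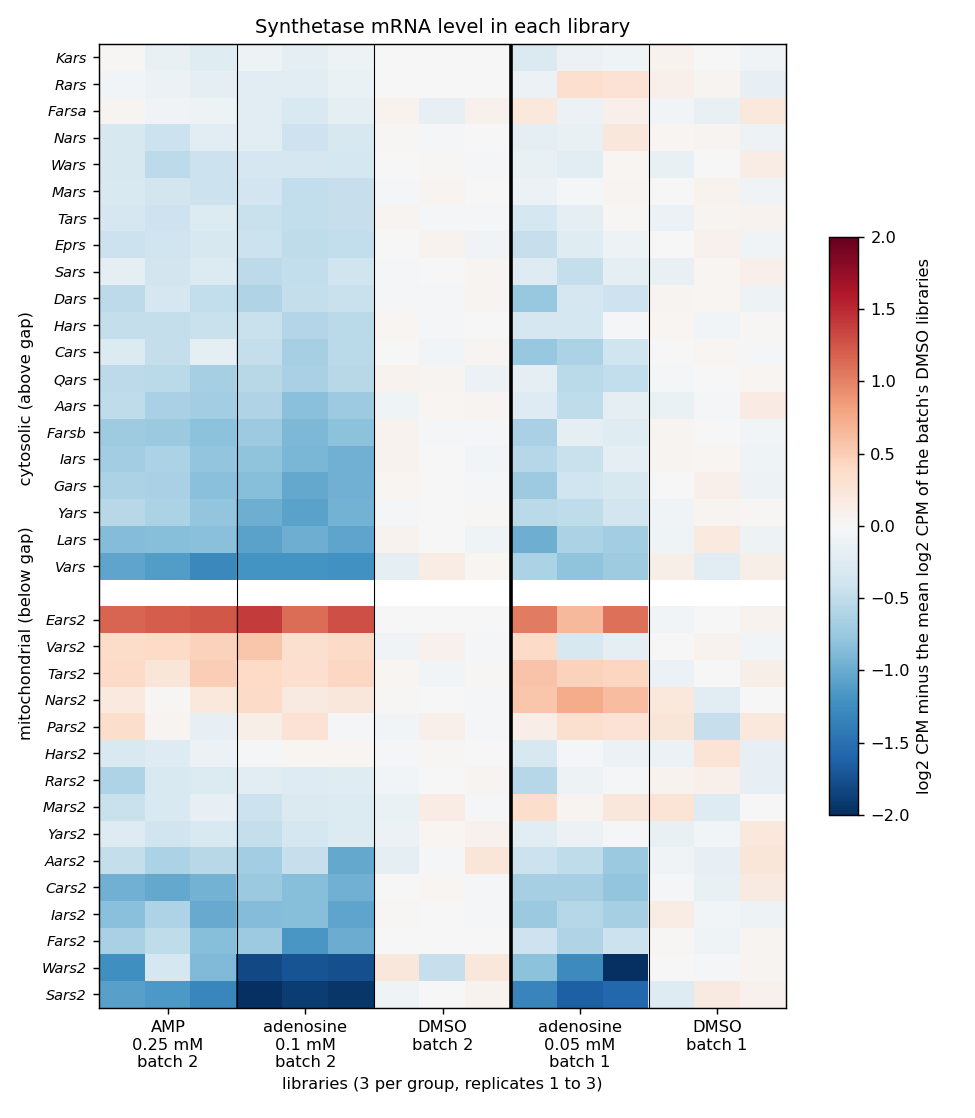
Level of each member (rows) in each library (columns), as log2 CPM minus the mean log2 CPM of the DMSO libraries of the same batch, with AMP, 0.1 mM adenosine and DMSO of batch 2 on the left and 0.05 mM adenosine and DMSO of batch 1 on the right. Ears2 and Tars2 are above the DMSO mean in every treated library, and Vars, Lars, Sars2 and Wars2 are below it in every treated library.

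Vars, the cytosolic valine enzyme (chr17:35000987-35016322, GRCm38), had the lowest log2 fold changes of the cytosolic members in batch 2. It had 269, 257 and 229 CPM in the AMP libraries, 243, 243 and 241 CPM in the 0.1 mM adenosine libraries and 489.9, 621 and 572 CPM in the DMSO libraries of batch 2. With 0.05 mM adenosine in batch 1 it had 359.9, 318 and 341 CPM, against 600.0, 474 and 602 CPM with DMSO. All treated libraries lay below all DMSO libraries of their batch, and the AMP and adenosine libraries of batch 2 overlapped. Vars was 2.23-fold lower with AMP (log2 fold change -1.16, SE 0.0870, adjusted p = 2.14e-08), 2.31-fold lower with 0.1 mM adenosine (adjusted p = 8.57e-09) and 1.64-fold lower with 0.05 mM adenosine (log2 fold change -0.72, SE 0.123, adjusted p = 6.42e-04). The Vars protein is known to associate with the eEF1 elongation factor, which carries charged tRNA to the ribosome.

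Lars, the cytosolic leucine enzyme and a reported leucine sensor for mTORC1, was next in batch 2 and had the lowest value of the cytosolic members in batch 1. Its level was 133, 134 and 136 CPM with AMP, 116, 123 and 117 CPM with 0.1 mM adenosine and 254, 244 and 229 CPM with DMSO in batch 2. The batch 1 values were 135, 170.3 and 164 CPM with 0.05 mM adenosine, against 251, 302 and 246 CPM with DMSO. Every AMP library was above every 0.1 mM adenosine library, and every treated library was below the DMSO libraries of its batch. Lars was 1.81-fold lower with AMP (adjusted p = 3.56e-08), 2.04-fold lower with 0.1 mM adenosine (log2 fold change -1.03, SE 0.0678, adjusted p = 3.38e-09) and 1.70-fold lower with 0.05 mM adenosine (adjusted p = 6.07e-04).

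Yars, Gars and Iars, each with a TGATGNAAN match in the windows printed above, also fell in all 3 comparisons. Yars, the tyrosine enzyme, had 120.3, 114 and 102 CPM with AMP, 89.1, 84.0 and 91.2 CPM with 0.1 mM adenosine and 173, 177 and 178 CPM with DMSO in batch 2. It had 156, 160.3 and 175 CPM with 0.05 mM adenosine and 216, 236 and 230.3 CPM with DMSO in batch 1. The 3 groups of batch 2 did not overlap, with adenosine lowest. The log2 fold change of Yars was -0.65 (SE 0.0747) with AMP, -0.999 (SE 0.0753) with 0.1 mM adenosine and -0.47 (SE 0.109) with 0.05 mM adenosine, with adjusted p of 1.78e-06, 1.41e-08 and 0.00443. Gars had 288, 285 and 251 CPM with AMP, 248, 220.1 and 231 CPM with 0.1 mM adenosine and 460.1, 448 and 436 CPM with DMSO in batch 2, where AMP libraries again lay between the other groups. In batch 1 Gars had 271, 342 and 359 CPM with 0.05 mM adenosine, against 446, 482 and 419.8 CPM with DMSO, and the groups did not overlap. Gars had log2 fold changes of -0.71, -0.94 and -0.47 in the same order. For Iars, the isoleucine enzyme, they were -0.71, -0.89 and -0.39.

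Farsb and Farsa code for the β and α subunits of the cytosolic phenylalanine enzyme, and only Farsb fell in both comparisons of batch 2. Farsb averaged 119 ± 4.37 CPM with AMP, 114 ± 6.88 CPM with 0.1 mM adenosine and 201 ± 8.76 CPM with DMSO (SD, n = 3 each), with log2 fold changes of -0.76 and -0.81. Its change with 0.05 mM adenosine was -0.35 (SE 0.133), with an adjusted p of 0.0504, and 9.47% of its exon bases are shared with Sgpp2. Farsa had 121, 111 and 108 CPM with AMP, 99.5, 94.1 and 101 CPM with 0.1 mM adenosine and 122, 104 and 123 CPM with DMSO in batch 2. The AMP libraries overlapped the DMSO libraries and the adenosine libraries lay below both. Its log2 fold change was -0.04 (95% interval -0.21 to 0.14) with AMP, -0.24 (adjusted p = 0.0148) with 0.1 mM adenosine and 0.06 (95% interval -0.22 to 0.35) with 0.05 mM adenosine. Under library totals without TMM factors the batch 2 values of Farsa turned to 0.23 with AMP and 0.06 with 0.1 mM adenosine. Whether the subunits differ in their response was not tested.

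The 8 enzymes of the multisynthetase complex ranged in batch 2 from Lars, with the lowest log2 fold changes, to Kars and Rars, the lysine and arginine enzymes, with those nearest to 0. With 0.05 mM adenosine the value nearest to 0 was that of Mars. Of the 8, 6 fell with AMP, 7 with 0.1 mM adenosine and 4 with 0.05 mM adenosine, with median log2 fold changes of -0.41, -0.49 and -0.33. Of all genes 31.8%, 34.5% and 19.5% fell in the same order. Dars, Iars, Lars and Qars were the 4 that fell in all 3. Qars, the glutamine enzyme, had log2 fold changes of -0.58, -0.59 and -0.40. Eprs, which charges glutamate and proline, had -0.38, -0.47 and -0.27, and Mars, the methionine enzyme, -0.36, -0.44 and -0.03. Neither Eprs nor Mars passed the test with 0.05 mM adenosine, and Mars shares 1.99% of its exon bases with Ddit3, which rose. The genes of the 3 scaffold proteins went different ways in batch 2, while with 0.05 mM adenosine none passed the test (0.11 to 0.29). Aimp1 rose with AMP (0.24) and 0.1 mM adenosine (0.35), Eef1e1 fell (-0.39 and -0.63), and Aimp2 passed no test.

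Kars was the only cytosolic member that passed no test against DMSO in the main fit. It had 273, 242 and 227 CPM with AMP, 249.6, 236 and 251 CPM with 0.1 mM adenosine and 269, 269 and 268 CPM with DMSO in batch 2. The batch 1 libraries had 283, 319 and 326 CPM with 0.05 mM adenosine, against 362, 346 and 328 CPM with DMSO. Adenosine libraries lay below the DMSO libraries in both batches, while one AMP library was above those of DMSO. The 95% interval of its log2 fold change was -0.28 to 0.04 with AMP, -0.29 to 0.03 with 0.1 mM adenosine and -0.40 to 0.08 with 0.05 mM adenosine, so small falls are within the error. With library totals in place of TMM factors the Kars value with 0.1 mM adenosine turned to 0.18 and passed the test (adjusted p = 0.0466). Without AMP replicate 1, Kars fell with AMP (-0.19, adjusted p = 0.0332). Gars, which like Kars serves both compartments, fell in all 3 comparisons.

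Rars, Farsa and Nars were the cytosolic members nearest to no change among those that fell with 0.1 mM adenosine. Rars had 214, 205 and 196 CPM with AMP, 192, 189.9 and 204 CPM with 0.1 mM adenosine and 222, 221 and 224 CPM with DMSO in batch 2. All 3 AMP libraries lay below the DMSO libraries, yet only the change with adenosine passed the test, at a log2 fold change of -0.19 (adjusted p = 0.0179), which turned to 0.12 under library totals. With 0.05 mM adenosine Rars had 186, 255 and 246 CPM, against 217, 211 and 181 CPM with DMSO, with overlap and no call (log2 fold change 0.18). Nars had 405, 377 and 432 CPM with AMP, 441, 383 and 406 CPM with 0.1 mM adenosine and 515, 499.9 and 508 CPM with DMSO in batch 2. Both treated groups lay below DMSO, with log2 fold changes of -0.33 and -0.31. In batch 1 Nars had 529.8, 544 and 703 CPM with 0.05 mM adenosine and 616, 626 and 562 CPM with DMSO, where the groups overlapped and the change was -0.02.

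The other cytosolic members fell by moderate amounts in batch 2. With AMP and with 0.1 mM adenosine the log2 fold changes were -0.62 and -0.73 for Aars (alanine) and -0.31 and -0.56 for Cars (cysteine). They were -0.45 and -0.51 for Dars (aspartate), -0.46 and -0.52 for Hars (histidine), and -0.27 and -0.47 for Sars (serine). For Tars (threonine) they were -0.34 and -0.46, and for Wars (tryptophan) -0.42 and -0.34. With 0.05 mM adenosine Cars (-0.59) and Dars (-0.49) fell, while Aars (-0.32), Hars (-0.24), Sars (-0.30), Tars (-0.17) and Wars (-0.11) did not pass the test. Standard errors of the cytosolic changes were 0.065 to 0.087 in batch 2 and 0.107 to 0.137 in batch 1. Grouped by enzyme class, the 9 class I genes had median log2 fold changes of -0.58, -0.59 and -0.40 with AMP, 0.1 mM adenosine and 0.05 mM adenosine, and 8, 9 and 6 of them fell. For the 10 class II genes the medians were -0.40, -0.49 and -0.27, and 8, 9 and 2 fell. The shares of all genes that fell were 31.8%, 34.5% and 19.5%.

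Among mitochondrial members, Sars2, the serine enzyme (chr7:28741968-28753879, GRCm38), had the largest fall. It had 11.4, 10.8 and 9.75 CPM with AMP, 5.17, 6.47 and 6.30 CPM with 0.1 mM adenosine and 22.8, 24.2 and 25.4 CPM with DMSO in batch 2. Batch 1 gave 11, 8.75 and 9.20 CPM with 0.05 mM adenosine, against 22.7, 30.7 and 28.9 CPM with DMSO. No groups overlapped, and in batch 2 the adenosine libraries were lowest. Sars2 was 2.27-fold lower with AMP (adjusted p = 3.75e-06), 4.02-fold lower with 0.1 mM adenosine (log2 fold change -2.01, SE 0.152, adjusted p = 1.47e-08) and 2.85-fold lower with 0.05 mM adenosine (adjusted p = 1.10e-04). These values rest on 65 to 92 counts per library with 0.1 mM adenosine and 240 to 289 counts with DMSO in batch 2. The gene starts 148 bases from that of Mrps12 on the other strand.

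Wars2 was the least abundant member and fell in all 3 comparisons. It had 3.11, 5.68 and 3.92 CPM with AMP, 2.07, 2.18 and 2.15 CPM with 0.1 mM adenosine and 8.52, 5.24 and 8.51 CPM with DMSO in batch 2. The batch 1 values were 5.74, 4.20 and 2.53 CPM with 0.05 mM adenosine, against 10.1, 9.90 and 10.6 CPM with DMSO. One AMP library overlapped a DMSO library, while both adenosine groups lay below their DMSO libraries. The log2 fold changes were -0.81 (SE 0.267, adjusted p = 0.0142) with AMP, -1.80 (SE 0.285, adjusted p = 3.97e-05) with 0.1 mM adenosine and -1.29 (SE 0.319, adjusted p = 0.00648) with 0.05 mM adenosine. Its counts were 35 to 67, 26 to 31 and 52 to 108 per library in the AMP, adenosine and DMSO groups of batch 2, and its standard errors were the widest of the 35 members. With library totals in place of TMM factors its change with AMP was -0.55 and no longer passed the test.

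Aars2, Cars2, Fars2 and Iars2, the mitochondrial alanine, cysteine, phenylalanine and isoleucine enzymes, fell in all 3 comparisons, by less than Sars2. Iars2 averaged 59.2 ± 7.98 CPM with AMP, 54.8 ± 4.22 CPM with 0.1 mM adenosine and 104 ± 1.46 CPM with DMSO in batch 2, with log2 fold changes of -0.81 and -0.92. It averaged 62.5 ± 3.76 CPM with 0.05 mM adenosine and 99.0 ± 8.93 CPM with DMSO in batch 1 (SD, n = 3 per group), with a log2 fold change of -0.66. Of its exon bases 24.2% are shared with Rab3gap2 and 2010103J01Rik, from which reads counted without strand cannot be told apart. For Cars2, which shares 20.5% of its exon bases with Naxd, the changes were -0.98, -0.85 and -0.71 with AMP, 0.1 mM adenosine and 0.05 mM adenosine. For Fars2 they were -0.67, -0.95 and -0.48, and for Aars2 -0.56, -0.72 and -0.56.

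Ears2, the mitochondrial glutamate enzyme (chr7:122037213-122067263, GRCm38), rose most. Its product charges glutamate onto both the glutamate and the glutamine tRNAs of mitochondria, and a separate amidotransferase converts the glutamine tRNA. Ears2 had 40.7, 42.0 and 43.3 CPM with AMP, 48.3, 39.6 and 44.3 CPM with 0.1 mM adenosine and 18.3, 18.1 and 18.2 CPM with DMSO in batch 2. In batch 1 it had 60.5, 46.1 and 63.2 CPM with 0.05 mM adenosine, against 28.3, 29.3 and 30.8 CPM with DMSO. Treated libraries lay above DMSO libraries in both batches, and the AMP and adenosine libraries of batch 2 overlapped. Ears2 was 2.31-fold higher with AMP (log2 fold change 1.21, SE 0.106, adjusted p = 1.13e-07), 2.42-fold higher with 0.1 mM adenosine (adjusted p = 4.00e-08) and 1.92-fold higher with 0.05 mM adenosine (adjusted p = 5.01e-04). Its start lies 88 bases from that of Ubfd1 on the other strand, and 1.73% of its exon bases are shared with that gene. The amidotransferase genes Gatb and Gatc passed no test in any of the 3 comparisons, and Qrsl1 fell with 0.1 mM adenosine (-0.38) and passed no other test against DMSO.

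Tars2, the mitochondrial threonine enzyme, also rose in all 3 comparisons. It had 94.2, 85.8 and 102 CPM with AMP, 94.9, 91.6 and 96.4 CPM with 0.1 mM adenosine and 73.9, 69.5 and 73.6 CPM with DMSO in batch 2. In batch 1 it had 145, 134 and 132 CPM with 0.05 mM adenosine, against 90.2, 97.5 and 106 CPM with DMSO, and in neither batch did treated and DMSO libraries overlap. The log2 fold changes were 0.38 (adjusted p = 6.03e-04), 0.38 (adjusted p = 4.68e-04) and 0.49 (adjusted p = 0.00554). Vars2, the valine enzyme, rose in batch 2 (0.41 with AMP and 0.42 with 0.1 mM adenosine) and was at -0.01 (95% interval -0.44 to 0.42) in batch 1. Nars2, the asparagine enzyme, rose with 0.1 mM adenosine (0.27, adjusted p = 0.0435) and with 0.05 mM adenosine (0.63) and was at 0.15 (95% interval -0.09 to 0.39) with AMP. Exons of Vars2 overlap those of an unnamed gene over 8.52% of their bases, and those of Nars2 overlap C230038L03Rik over 6.74%.

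**Figure D4:**
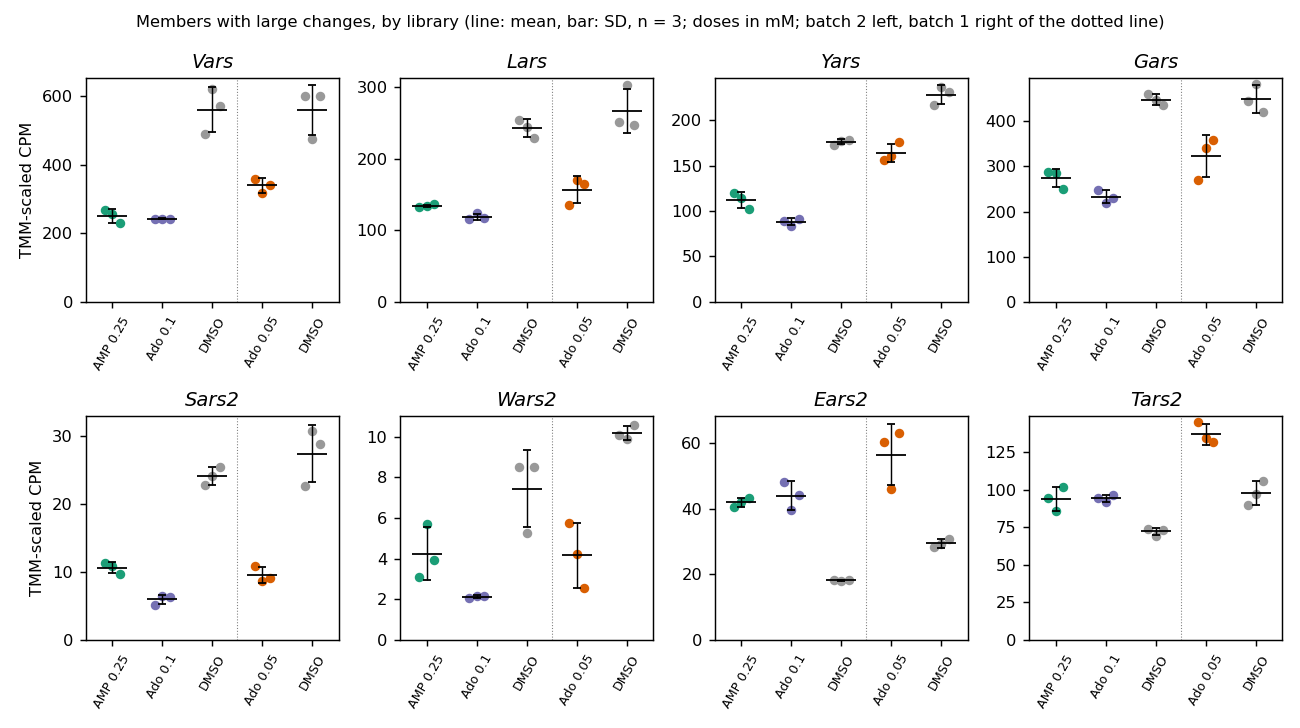
TMM-scaled CPM per library (points), with the mean (line) and SD (bar, n = 3), of 8 members with large changes; AMP 0.25 mM, adenosine 0.1 mM and DMSO of batch 2 stand left of the dotted line, and adenosine 0.05 mM and DMSO of batch 1 right of it. Vars, Lars, Yars, Gars and Sars2 are below DMSO in every treated library, and Ears2 and Tars2 are above it.

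The remaining mitochondrial members either fell in batch 2 only or passed no test in the main fit. Mars2, the methionine enzyme, had 34.8, 38.0 and 42.1 CPM with AMP, 35.1, 38.6 and 39.2 CPM with 0.1 mM adenosine and 42.9, 52.3 and 46.5 CPM with DMSO in batch 2. In batch 1 it had 56.2, 45.9 and 51.7 CPM with 0.05 mM adenosine, against 53.4, 37.1 and 43.9 CPM with DMSO. Both treated groups of batch 2 lay below DMSO, while the batch 1 groups overlapped. The log2 fold changes were -0.30 (adjusted p = 0.0230), -0.33 (adjusted p = 0.0130) and 0.19 (95% interval -0.15 to 0.54). Rars2 fell in batch 2, with -0.39 with AMP and -0.23 with 0.1 mM adenosine, of which the second turned to 0.08 under library totals and also lost its call with DESeq2, with RLE size factors, with the 10 CPM filter and in 5 fits without a library. Yars2 fell as well, by log2 fold changes of -0.32 and -0.36. Neither passed the test with 0.05 mM adenosine. Pars2, the proline enzyme, and Hars2, the histidine enzyme, passed no test in the main fit. With library totals in place of TMM factors both rose with 0.1 mM adenosine (0.45 and 0.33). With AMP, Hars2 fell under limma (-0.20) and without AMP replicate 3 (-0.28). The 95% intervals of Hars2 were -0.43 to -0.01 with AMP (adjusted p = 0.0561), -0.19 to 0.22 with 0.1 mM adenosine and -0.51 to 0.19 with 0.05 mM adenosine. Hars and Hars2 start 197 bases apart on opposite strands and share 195 exon bases, so some of their reads cannot be assigned to either with certainty.

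For 12 amino acids both a cytosolic and a mitochondrial gene were measured. The cytosolic mRNA was the more abundant by FPKM in all 12 pairs in DMSO and in 11 pairs in every treated group, with a median ratio of 5.49 with AMP, 6.63 with 0.1 mM adenosine, 7.17 with DMSO in batch 2, 6.88 with 0.05 mM adenosine and 6.39 with DMSO in batch 1. The exception was tyrosine, with Yars over Yars2 ratios of 0.84 with AMP, 0.68 with 0.1 mM adenosine and 1.06 with DMSO in batch 2, and 0.92 with 0.05 mM adenosine and 1.18 with DMSO in batch 1. Both genes of a pair fell for 7 amino acids with AMP, for 8 with 0.1 mM adenosine and for 2 (cysteine and isoleucine) with 0.05 mM adenosine. The members moved in opposite directions for threonine and valine with AMP, and for threonine, valine and asparagine with 0.1 mM adenosine. In the valine pair the cytosolic gene fell and the mitochondrial gene did not, with Vars over Vars2 ratios of 10.2 with AMP, 9.74 with 0.1 mM adenosine and 30.2 with DMSO in batch 2, and 12.02 with 0.05 mM adenosine and 19.6 with DMSO in batch 1. In the tryptophan pair the mitochondrial gene had the larger fall, with Wars over Wars2 ratios of 38.7, 81.0, 29.5, 54.8 and 24.3 in the same order. In 7, 7 and 6 of the 12 pairs the cytosolic gene had the lower log2 fold change with AMP, 0.1 mM adenosine and 0.05 mM adenosine, so neither compartment was the lower one throughout.

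The adenosine groups differ in both dose and batch (0.1 mM, batch 2 and 0.05 mM, batch 1), which cannot be told apart. Over the 35 members the log2 fold changes of the separate comparisons had a Pearson correlation of 0.93 and a Spearman correlation of 0.91 across genes, which share a library and are not independent. Of the 35, 30 had the same sign and 29 the larger size in batch 2, including 18 of the 20 cytosolic members with a more negative value there. The shares of all genes with the same sign or the larger size were not computed. With adenosine 34.5% of all genes fell and 34.9% rose in batch 2, and 19.5% fell and 19.6% rose in batch 1. The median over all genes of the difference, batch 2 minus batch 1, was 0.0015. A test of the difference, batch 2 minus batch 1, called 5 cytosolic members lower and 0 higher, and 0 mitochondrial members in either direction, where 4.87% of all genes were lower and 5.28% higher. At an unadjusted p under 0.05, 2 mitochondrial members were lower and 0 higher, and DESeq2 called 0. The 5 were Yars (-0.52, SE 0.114, adjusted p = 0.0105), Iars (-0.49, adjusted p = 0.0272), Vars (-0.49, adjusted p = 0.0453), Gars (-0.46, adjusted p = 0.0426) and Mars (-0.40, adjusted p = 0.0285). These calls rest on few libraries and on the scaling, since library totals left 1 of them. The count fell to between 1 and 3 without batch 2 adenosine replicate 1, 2 or 3, batch 2 DMSO replicate 1, 2 or 3, batch 1 adenosine replicate 3 or batch 1 DMSO replicate 2. Kars (0.03) and Dars (-0.01) had values near 0, with 95% intervals of -0.20 to 0.27 and -0.30 to 0.29.

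**Figure D5:**
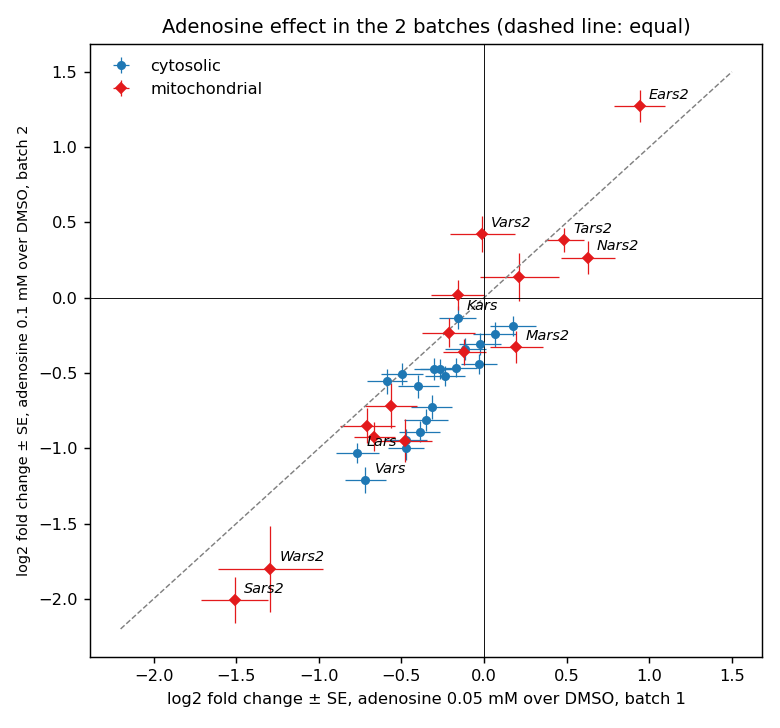
Log2 fold change of each member with 0.1 mM adenosine over DMSO in batch 2 (y axis) against that with 0.05 mM adenosine over DMSO in batch 1 (x axis), bars ± SE, circles for cytosolic and diamonds for mitochondrial genes; the dashed line marks equal values. Most cytosolic members lie below the line, and Sars2, Wars2 and Ears2 lie furthest from 0 in both batches.

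AMP and adenosine were also compared directly within batch 2, where compound and dose (0.25 mM and 0.1 mM) changed together and cannot be told apart. Only Yars and Sars2 passed the test, both higher with AMP, as 1 of 20 cytosolic and 1 of 15 mitochondrial members, and 0 members were lower, where 4.52% of all genes were higher and 2.00% lower. DESeq2 called 2 cytosolic and 2 mitochondrial members higher and 0 lower, and at an unadjusted p under 0.05 the edgeR test had 7 cytosolic and 2 mitochondrial members higher, and 0 cytosolic and 1 mitochondrial member lower. In all, 18 of 20 cytosolic and 7 of 15 mitochondrial members had a positive log2 fold change of AMP over adenosine. The median of this change over all genes was -0.0027, and the share of all genes with a positive value was not computed. The values per library of Yars and Sars2 are given above, and in both the AMP libraries lay between the adenosine and the DMSO libraries. Yars was 1.27-fold higher with AMP than with adenosine (log2 fold change 0.35, SE 0.0755, adjusted p = 0.0106), a call that was lost without AMP replicate 1. Without that library 2 mitochondrial members were called, and 2 cytosolic members were called without AMP replicate 2 or 3 or adenosine replicate 1. Sars2 was 1.78-fold higher (log2 fold change 0.83, SE 0.157, adjusted p = 0.00420). Wars2 had a change of 0.99 with a 95% interval of 0.36 to 1.61 and an adjusted p of 0.0599. For the other members the log2 fold change of AMP over adenosine lay between -0.24 and 0.28. The Ears2 difference had an interval of -0.28 to 0.14 and that of Vars -0.13 to 0.24.

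Of 22 other genes of the ATF4 response, 8 rose and 12 fell with AMP, 8 rose and 13 fell with 0.1 mM adenosine, and 4 rose and 10 fell with 0.05 mM adenosine, with medians of -0.45, -0.58 and -0.13. Over all genes the shares that rose and fell were 33.7% and 31.8%, 34.9% and 34.5%, and 19.6% and 19.5% in the same order. Atf4 itself averaged 367 ± 53.3 CPM with AMP, 278 ± 32.0 CPM with 0.1 mM adenosine and 695 ± 16.5 CPM with DMSO in batch 2, and 321 ± 33.6 CPM with 0.05 mM adenosine and 543 ± 18.1 CPM with DMSO in batch 1 (SD, n = 3 per group). Its log2 fold changes were -0.92 (adjusted p = 1.10e-06), -1.32 (adjusted p = 1.78e-08) and -0.76 (adjusted p = 2.51e-04). Phgdh, the first enzyme of serine synthesis, had the lowest log2 fold change of the list in all 3 comparisons, at -2.07, -2.65 and -2.29, and Asns, asparagine synthetase, had -1.57, -2.01 and -1.40. Genes of stress-responsive transcription factors were among those that rose. Ddit3, which codes for CHOP, had 1.86, 2.30 and 1.75, and Atf3 3.56, 4.25 and 3.19, all past the test. The 13 synthetases listed as ATF4-responsive all fell in both comparisons of batch 2, and 6 of the 13 fell in batch 1, with medians of -0.42, -0.56 and -0.32. The 20 cytosolic members as a whole were close to this, with 17, 19 and 8 that fell and medians of -0.43, -0.51 and -0.31.

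Among genes upstream of ATF4, Eif2ak4, which codes for GCN2, fell with AMP (-0.31), 0.1 mM adenosine (-0.54) and 0.05 mM adenosine (-0.51). Of the 13 measured genes of GCN2, eIF2 and mTORC1 sensing, 4 rose and 5 fell, 3 rose and 5 fell, and 1 rose and 2 fell in these comparisons, beside 33.7% and 31.8%, 34.9% and 34.5%, and 19.6% and 19.5% of all genes. Myc, which codes for a factor that raises genes of ribosome production and protein synthesis, changed little: log2 fold changes were 0.10, -0.22 and -0.09, of which only the second passed the test. In the MYC network list of 13 genes, 3 rose and 5 fell with AMP, 4 rose and 7 fell with 0.1 mM adenosine, and 3 rose and 5 fell with 0.05 mM adenosine, beside the same shares of all genes. Mxd4, a partner of MAX that opposes MYC, had 2.53, 2.83 and 1.35. Npm1, a nucleolar protein gene, had -1.61, -1.94 and -1.20, and these values of both genes all passed the test. Npm1 was not the lowest of the list, whose minimum was -4.17 with AMP, -2.66 with 0.1 mM adenosine and -3.29 with 0.05 mM adenosine.

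All 5 cytosolic elongation factor genes fell in all 3 comparisons, with medians of -1.23, -1.48 and -1.35, below the cytosolic synthetase medians given above. Eef1a1, the carrier of charged tRNA, averaged 2186 ± 318 CPM with AMP, 1896 ± 108 CPM with 0.1 mM adenosine and 7126 ± 126 CPM with DMSO in batch 2 (SD, n = 3 each), with a log2 fold change of -1.70 with AMP and -1.91 with adenosine. In batch 1 it was -1.52. Of the 13 factors of mitochondrial translation, 2 rose and 3 fell with AMP, and 2 rose and 6 fell with 0.1 mM adenosine. With 0.05 mM adenosine 1 rose and 1 fell. The numbers that did not pass the test were 8, 5 and 11, and the medians were -0.09, -0.20 and -0.13. Mtfmt, which formylates the mitochondrial initiator tRNA, rose in all 3 (0.61, 0.76 and 1.01), and Gfm1, an elongation factor, fell (-0.69, -0.74 and -0.40). Values in this list ran from -0.69 to 1.46, -0.74 to 1.90 and -0.46 to 1.01 in the same order. Of 10 genes of tRNA processing, proofreading and export, 1 rose and 5 fell, 1 rose and 6 fell, and 1 rose and 2 fell. Beside these lists and the cytosolic elongation factors, the shares of all genes that rose and fell were 33.7% and 31.8% with AMP, 34.9% and 34.5% with 0.1 mM adenosine, and 19.6% and 19.5% with 0.05 mM adenosine. Xpot, the tRNA exporter, had log2 fold changes of -0.56, -0.61 and -0.08, the first 2 past the test. Values in its list ran from -0.72 to 0.51, -1.08 to 0.27 and -0.71 to 0.62 in the same order.

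The 5 cytosolic members with a TGATGNAAN match and the 7 with a window but no match can be set side by side as a description. With AMP the matched genes had a median log2 fold change of -0.65 (from -0.71 to -0.34) and the unmatched genes -0.38 (from -0.76 to -0.04). With 0.1 mM adenosine the medians were -0.89 (from -0.999 to -0.46) for matched and -0.47 (from -0.81 to -0.13) for unmatched genes, and with 0.05 mM adenosine -0.39 and -0.30. The ranges overlap in each comparison. With AMP, 0.1 mM adenosine and 0.05 mM adenosine, 5, 5 and 3 of the matched genes fell, and 5, 6 and 2 of the unmatched genes. Of all genes 31.8%, 34.5% and 19.5% fell in the same order. Vars and Lars were not among the members with a window used here.

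The authors' deposited table for batch 1 lists their own adjusted p for each gene. By it 10 of the 20 cytosolic and 9 of the 15 mitochondrial members were under 0.05, against 8 and 9 in the fit used here, and 0 members had the opposite sign once the table's direction, DMSO over adenosine, was turned round.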

How the data were processed

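RNA from cultured satellite cells was sequenced as 15 Smart-seq2 libraries, 3 in each of 5 groups. The deposited files hold raw gene counts and FPKM for each batch, with gene length in bases, the authors' log2 fold changes and adjusted p-values for batch 1. Per the file headers, batch 1 counts were made by the authors with featureCounts 1.6.4 over exons, with read pairs counted and no strand option. Reads over bases shared by antisense genes could thus not be told apart by strand. The submitters' processing notes name Trim Galore, STAR, Subread, DESeq2 and mm10; for batch 2 the counting settings were not stated, and the smallest total of a row is 101.

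The counts were tested with edgeR 4.0.16 (quasi-likelihood test, TMM factors, filterByExpr, Benjamini-Hochberg adjustment at 0.05) in R 4.3.3, on 6 libraries and 13842 genes in batch 1 and on 9 libraries and 13063 genes in batch 2. The difference of the adenosine effects was tested over 12 libraries and 13037 genes shared by both tables. The 43 lines without a gene name in batch 2 (0.0561% to 0.0631% of counts) were left out. Standard errors come from the test statistic, and FPKM was used to compare levels between genes and in one alternative. The scripts were tested on simulated counts.

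Members and gene lists were chosen with earlier results of these data known. All 35 members are reported, with values per library for those called in at least 2 comparisons with DMSO with a log2 fold change beyond 1, and for the 4 called members nearest to no change. Yars, Gars, Kars and Tars2 were added to these after their values were seen. Other genes were taken from the lists, though not always the ones with the largest change in their list. Atf4, Ddit3, Asns and Myc were named as well, and Aimp2, Gatb, Gatc, Qrsl1 and Eif2ak4 were named after their values were seen. Deviations of same-numbered libraries correlated at -0.19 to 0.22 in batch 1 and -0.03 to 0.51 in batch 2, so the numbers did not pair all groups. The 3 pairs of 0.1 mM adenosine and DMSO, at 0.35, 0.29 and 0.15, did pass the limit of 0.1, and a replicate block changed the call of 0 of 35 members in that comparison. The alternatives were other size factors, filters, DESeq2 1.42.0, limma 3.58.1 on log2(FPKM + 1), a replicate block and leaving out each library.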

Additional observations from a re-analysis of the deposited data

Results flagged for a closer look

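The effect of adenosine differed between 0.1 mM in batch 2 and 0.05 mM in batch 1, by a test of the difference itself, for 5 cytosolic members. The difference in log2 fold change, batch 2 minus batch 1, was -0.52 for Yars, -0.49 for Iars, -0.49 for Vars, -0.46 for Gars and -0.405 for Mars. All 5 had negative changes with adenosine in both batches, more so in batch 2, and Mars did not pass the test in batch 1. Dose and batch cannot be told apart. With library totals in place of TMM factors 1 of the 5 kept its call. Groups of 3 were not screened gene by gene for single libraries.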

How the results depend on the processing

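Library totals without TMM factors moved the results most. With AMP, 1 cytosolic member was then higher, 9 were lower and 4 mitochondrial members were lower, with medians of -0.166 (cytosolic) and -0.0508 (mitochondrial). With 0.1 mM adenosine 1 cytosolic member was higher and 11 were lower, with medians of -0.205 and -0.0162. Among mitochondrial members Mars2, Rars2 and Yars2 lost their call there, and Hars2 (0.327) and Pars2 (0.446) were higher. With 0.05 mM adenosine 3 cytosolic members were lower, with medians of -0.113 and 0.0352, the second reversed. For the difference between batches 1 cytosolic member was lower and the median was -0.18. Values that reversed were Farsa with AMP (0.227) and, with 0.1 mM adenosine, Farsa (0.0629), Kars (0.176), Rars (0.12) and Rars2 (0.0752). The median of all genes moved by a like amount. Keeping genes of at least 10 CPM gave medians of -0.36 and -0.24 with AMP and -0.44 and -0.21 with 0.1 mM adenosine, and 3 cytosolic members lower in the difference between batches. For AMP over adenosine, DESeq2 called 2 cytosolic and 2 mitochondrial members higher, and the replicate block 3 cytosolic members. The replicate block left 3 cytosolic members lower in the difference between batches and moved no other count by more than 1.5 times. The block ended the call of Fars2 with 0.05 mM adenosine and those of Gars and Mars in the difference between batches, and added Cars and Gars for AMP over adenosine. Same-numbered libraries of batch 2 correlated at a median of 0.25, against -0.14 for other numbers. Leaving out 1 library gave 5 to 8 cytosolic and 4 to 6 mitochondrial members lower with 0.05 mM adenosine, 0 to 2 cytosolic and 1 to 2 mitochondrial members higher with AMP over adenosine, and, for the difference between batches, 1 to 7 cytosolic members lower, 0 to 1 mitochondrial higher and 0 to 1 mitochondrial lower. Mitochondrial medians without 1 library ran from -0.377 to -0.288 with AMP, -0.393 to -0.249 with 0.1 mM adenosine and -0.254 to -0.11 with 0.05 mM adenosine. The causes of these shifts were not tested. Batches were sequenced to different depths and Wars2, at few counts, is the member whose values are least certain.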
